A study of Mus musculus with 12 samples.

Results

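The transcripts of 10 receptors for extracellular nucleotides were followed in sensory neuron fractions of mouse trigeminal ganglia (TG) and dorsal root ganglia (DRG). The genes were taken by symbol from the count tables and were all found among the 22609 genes listed. There were 6 P2X receptors (P2rx2, P2rx3, P2rx4, P2rx5, P2rx6 and P2rx7) and 4 P2Y receptors (P2ry1, P2ry2, P2ry12 and P2ry14).

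P2X receptors are cation channels made of 3 subunits that open when extracellular ATP binds, and different subunits can share a channel. P2Y receptors are coupled to G proteins and answer to ATP, ADP, UTP or nucleotide sugars, depending on the member. In sensory ganglia, P2X3 is the classic channel of non-peptidergic nociceptors, whereas P2Y12, P2Y14 and P2X7 are best known from glia and macrophages.

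Ganglia came from naïve C57BL mice, C57BL/6J in the study's methods, with no transgene or treatment in any group. They formed 4 groups of 3 libraries each, namely female TG, male TG, female DRG and male DRG. The labels give an age of 3 to 4 months. The study's methods state a younger age, place the females in estrous phase and name lumbar ganglia as the source of DRG. Neurons were enriched on a density gradient of Percoll, so that the other cells of the ganglion were reduced and not removed. The labels do not say how many animals made up a library, and p-values therefore measure the spread between these libraries.

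The depth per library was 7511765 to 15396090 reads in genes (median 11663521.5), and female DRG 1 was the shallowest. Female DRG 1 lay apart on the leading principal component of log2 CPM (score 163.5, next library 26.1) and female TG 3 on PC3 (125.8, next 10.4). CPM express a gene's reads on a common library total, after TMM scaling. The summed CPM of 6 sensory neuron markers lay at 4287 to 6759 in TG libraries and at 4246 to 8145 in DRG libraries. Satellite glia markers were abundant as well, at 3693 to 6354 CPM in TG and 2407 to 5406 CPM in DRG. Macrophage markers summed to 92.8 to 288 CPM in TG and 184 to 277 CPM in DRG. Hba-a1 and Hbb-b1, which mark red blood cells, were listed at 0 in all 12 libraries. Reads that map to several places were not counted, so this 0 does not show that red blood cells were absent. The T cell genes Cd3e and Cd3d had at most 8 and 10 counts in a library.

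Levels between genes were set side by side per length, as RPKM (TMM-scaled CPM per kilobase of exon). P2rx3 (chr2:84838740-84877619, mm9, minus strand), the ATP-gated channel of nociceptors, was the most abundant member in each of the 12 libraries, with 168 ± 49.5 RPKM (SD, n = 12). P2ry1 (chr3:60806717-60812901, plus strand), a receptor for ADP, followed in each library with 34.4 ± 6.18 RPKM. P2rx4 (chr5:123157593-123179747, plus strand), an ATP-gated channel found in many cell types, came next by its mean with 12.2 ± 3.01 RPKM. The lowest P2rx3 library, at 105 RPKM, stood above the highest P2ry1 library, at 44.0 RPKM, and the lowest P2ry1 library, at 21.6 RPKM, stood above the highest P2rx4 library, at 19.3 RPKM.

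Below these genes the order was not resolved. P2rx6 (8.69 ± 4.22 RPKM, SD, n = 12), P2rx7 (7.86 ± 2.50), P2rx5 (5.73 ± 3.33), P2ry12 (5.16 ± 1.52), P2ry14 (4.48 ± 1.44) and P2ry2 (3.94 ± 1.86) each overlapped with the next in rank. P2rx4 exceeded P2rx6 in 12 of 12 libraries, although the ranges of these 2 genes over all libraries overlapped. Among the genes ranked from P2rx6 to P2ry2, P2rx6 had the widest span, from 1.82 to 15.6 RPKM. P2rx2 was last in every library with 0.973 ± 0.648 RPKM. Among all genes with a length, P2rx3 lay at the 98.65th percentile of mean RPKM, P2ry1 at the 89.9th and P2rx2 at the 27.27th.

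**Figure D1:**
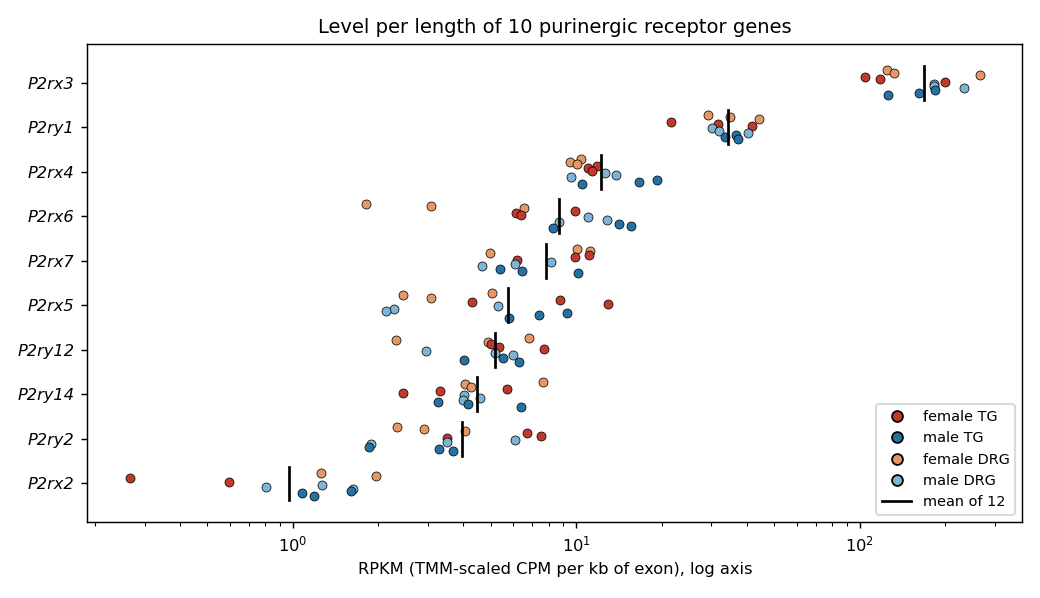
Level of each receptor gene in each library, as RPKM on a log axis, with points coloured by group and a black bar at the mean of 12 libraries. P2rx3 lies at 105 to 266 RPKM and P2ry1 at 21.6 to 44.0 RPKM with no overlap between them, while P2rx6 to P2ry2 overlap; the 2 libraries with 0 P2rx2 counts (female DRG 1 and female TG 2) cannot be drawn on a log axis and are left out.

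Within its family P2rx3 made up most of the transcript. Its share of the summed RPKM of the 6 P2X genes was 78.1% ± 4.09 in TG (SD, n = 6) and 85.3% ± 3.96 in DRG (SD, n = 6). The TG libraries ranged from 71.5% to 84.3% and the DRG libraries from 82.0% to 90.9%. P2ry1 held 69.8% ± 8.14 of the summed RPKM of the 4 P2Y genes in TG and 72.9% ± 5.93 in DRG. The sum over the 4 P2Y genes was 48.0 RPKM in both ganglia, with SDs of 5.97 in TG and 5.54 in DRG. These shares are given as descriptions, without a test.

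P2rx2 (chr5:110768831-110772168, minus strand), the subunit that joins P2X3 in heteromeric channels, was scarce. Its counts were 0 in female DRG 1 and female TG 2 and between 6 and 46 in the other 10 libraries. The floor of 3 counts corresponded to 0.357 CPM in female DRG 1 and 0.241 CPM in female TG 2. Where P2rx2 was counted at all, P2rx3 exceeded it between 105-fold (female DRG 2) and 393-fold (female TG 1) in RPKM. Counting error alone was large for this gene, as in female TG 1, where 6 counts gave 0.528 CPM with a 95% Wilson interval from 0.242 to 1.15.

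P2ry1 varied least between libraries relative to its mean. P2rx6 (chr16:17561978-17577893, plus strand) had the widest RPKM span among the genes ranked from P2rx6 to P2ry2, which is a different measure. Relative to their means, P2rx2 (0.973 ± 0.648 RPKM) and P2rx5 (5.73 ± 3.33) varied more than P2rx6 (8.69 ± 4.22). The upstream sequences of P2ry1 and P2rx6 are shown and are not a contrast of the steadiest with the most variable gene. They are the 250 bases before a RefSeq start (GRCm38.p6), read 5′ to 3′ on the strand of the gene and placed on mm9 by exact match, at chr3:60806457-60806706 for P2ry1 and chr16:17561728-17561977 for P2rx6. Capitals mark matches on either strand to TATAAA (the TATA box), CCAAT (the CCAAT box), GGGCGG (the GC box), TGTGGT (a core motif of Runx factors) or TAATTA (a core motif of homeodomain factors).
P2ry1: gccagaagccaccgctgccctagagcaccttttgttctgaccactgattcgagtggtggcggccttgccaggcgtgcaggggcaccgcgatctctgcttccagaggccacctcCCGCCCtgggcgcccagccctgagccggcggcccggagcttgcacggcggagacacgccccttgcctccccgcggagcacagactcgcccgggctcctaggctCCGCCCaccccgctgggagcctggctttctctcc
P2rx6: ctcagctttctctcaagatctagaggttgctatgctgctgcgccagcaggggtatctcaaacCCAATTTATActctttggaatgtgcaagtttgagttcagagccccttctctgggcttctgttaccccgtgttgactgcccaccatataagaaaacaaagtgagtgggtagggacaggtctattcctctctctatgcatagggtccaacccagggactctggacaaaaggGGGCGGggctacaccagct
The P2ry1 window is 70.8% GC with 20 CpG and 2 GGGCGG matches. The P2rx6 window is 50.8% GC with 3 CpG and holds 1 GGGCGG match and 1 each of CCAAT and TATAAA, which share 1 base. Across 32851 RefSeq windows of this length the median was 52.4% GC and 6 CpG. GGGCGG was present in 32.7% of those windows, CCAAT in 33.9%, TATAAA in 12.4%, TGTGGT in 14.045% and TAATTA in 4.84%. RefSeq entries were at hand for 7 of the 10 genes, and none of the windows was tested against expression.

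The first comparison asked how the receptors differ between TG and DRG. None of them was called in the edgeR quasi-likelihood test at an adjusted p under 0.05, in which 0.964% of all genes passed (143 of 14829). All 10 members passed the filter on low counts. An unadjusted p under 0.05 was reached by 2 of 10 members, P2rx5 and P2rx6, where 8.83% of all genes reached it. TG and DRG libraries overlapped for all 10 members, whereas 1.36% of all genes showed no overlap. The median log2 fold change of the members was 0.20, against -0.01 for all genes tested. With 10 genes these shares rest on single members.

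P2rx5 (chr11:72973923-72986187, plus strand), a P2X subunit of sensory neurons that gives small currents by itself, had the greatest value of TG over DRG. Its level was 20.9, 10.3 and 31.0 CPM in female TG 1, 2 and 3 and 22.3, 17.8 and 13.9 CPM in male TG 1, 2 and 3. In DRG it was 12.1, 5.87 and 7.37 CPM in females 1, 2 and 3 and 12.7, 5.44 and 5.12 CPM in males 1, 2 and 3. The ranges overlapped through female TG 2, which lay below female DRG 1 and male DRG 1, while the other 5 TG libraries exceeded all 6 DRG libraries. The mean was 19.4 ± 7.23 CPM in TG against 8.11 ± 3.43 CPM in DRG (SD, n = 6 each). On the log2 scale TG over DRG was 1.25 (SE 0.34), or 2.39-fold with a 95% interval from 1.44 to 3.94, and the edgeR adjusted p was 0.115. DESeq2 gave a log2 fold change of 1.22 and an adjusted p of 0.0451, and it called 2.25% of all genes with an adjusted p. The value was 1.29 in females and 1.22 in males, and 1.05 to 1.53 when any 1 library was left out.

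P2rx6, a subunit that forms channels mainly together with other P2X subunits, had 40.2 ± 15.8 CPM in TG against 29.2 ± 17.4 CPM in DRG (SD, n = 6 each). Its log2 fold change of TG over DRG was 0.60 (SE 0.28, edgeR adjusted p = 0.556). The groups overlapped widely, and the value was 0.99 in females and 0.23 in males. With the libraries numbered 1 and 2 only, the log2 fold change was 1.01 and the edgeR adjusted p was 0.0189. That fit called 814 genes in all, against 143 in the main fit, and it was the only 1 of 24 alternatives to call P2rx6.

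P2rx3 went the other way without passing the test. It measured 292, 330 and 560 CPM in female TG 1, 2 and 3 and 514, 451 and 351 CPM in male TG 1, 2 and 3. In DRG the values were 348, 370 and 741 CPM in females 1, 2 and 3 and 508, 509 and 649 CPM in males 1, 2 and 3. The spread within a ganglion was thus wider than the gap between the ganglia, with 416 ± 108 CPM in TG against 521 ± 154 CPM in DRG (SD, n = 6 each). TG over DRG was -0.32 on the log2 scale (SE 0.22, edgeR adjusted p = 0.799), and it was -0.59 (edgeR adjusted p = 0.157) without female DRG 1 and female TG 3.

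The 3 highest P2rx3 libraries were female DRG 3, male DRG 3 and female TG 3. Their satellite glia markers summed to 2407, 2782 and 3805 CPM, against 3693 to 6354 CPM in the other 9 libraries. In each group the library numbered 3 had the lowest of these sums, with 3693 CPM in male TG 3. Markers of non-peptidergic nociceptors (6 genes) summed to 2442 CPM in female DRG 3 and 2120 CPM in male DRG 3, above the other 10 libraries, and to 1419 CPM in female TG 3. Over the ganglia these markers summed to 1069 to 1430 CPM in TG and 1338 to 2442 CPM in DRG. Of the 6, 1 was called lower in TG, as were 50 of all 14829 genes tested. Among other lists, 1 of 4 peptidergic nociceptor markers and 1 of 6 macrophage markers were also called lower in TG. The part of these marker shifts in the P2rx3 values was not tested. In bulk fractions, fewer cells of a type and less RNA per cell cannot be told apart.

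The genes whose log2 CPM ran most closely with P2rx3 over the 12 libraries were Tomm70a (Pearson r = 0.97), Acpp (0.96) and Tmeff2 (0.95). They were ranked among 11436 genes with a mean of at least 5 CPM, and the libraries share depth and cell makeup with every gene, so these values only describe the pattern. Acpp encodes an acid phosphatase on nociceptor membranes that turns AMP into adenosine.

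P2ry1 was the steadiest member. It measured 83.9, 123 and 163 CPM in female TG 1, 2 and 3, 142, 130 and 145 CPM in male TG 1, 2 and 3, 113, 135 and 171 CPM in female DRG 1, 2 and 3, and 117, 124 and 157 CPM in male DRG 1, 2 and 3. The 3 highest libraries were the same as for P2rx3. The means were 131 ± 26.7 CPM in TG against 136 ± 23.2 CPM in DRG (SD, n = 6 each). The log2 fold change was -0.06 (SE 0.19), with a 95% interval from -0.45 to 0.33 and an edgeR adjusted p of 0.9998. Its closest genes were Cdh9 (r = 0.96), Sfr1 (0.92) and Rasgrp1 (0.91).

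P2rx4 measured 34.6 to 63.7 CPM in TG and 31.4 to 45.9 CPM in DRG. TG over DRG was 0.28 on the log2 scale with a 95% interval from -0.14 to 0.69 (edgeR adjusted p = 0.819). The 2 highest libraries were male TG 1 (63.7 CPM) and male TG 2 (55.0 CPM), while the 3 female TG libraries lay close together at 36.5 to 39.2 CPM. Its closest genes were Tmed2 (r = 0.92), Asb13 (0.92) and Ldhb (0.89).

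P2rx7 (chr5:123093920-123141441, plus strand), the low-affinity ATP channel linked to inflammasome activation in macrophages, ranged over 29.7 to 61.1 CPM in TG and 25.7 to 62.0 CPM in DRG. TG over DRG was 0.13 on the log2 scale with a 95% interval from -0.40 to 0.66 (edgeR adjusted p = 0.985). Its 2 lowest libraries, male DRG 3 (25.7 CPM) and female DRG 3 (27.4 CPM), were the 2 with the lowest satellite glia sums. Male TG 3, with the next lowest sum (3693 CPM), had 56.1 CPM of P2rx7. Male DRG 2, with a sum of 5266 CPM, had 33.7 CPM. Female TG 1 and 2, with sums of 5392 and 6354 CPM, had 61.1 and 54.6 CPM. Whether P2rx7 followed these sums was not tested. P2rx2 had 1.57 ± 1.21 CPM in TG against 2.29 ± 1.36 CPM in DRG (SD, n = 6 each), and its log2 fold change of -0.91 had an interval from -3.09 to 1.27.

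The 3 other P2Y genes were low in both ganglia, and their intervals were wide. P2ry2 (chr7:108145086-108160505, minus strand), a receptor for ATP and UTP, had 13.2 ± 6.56 CPM in TG against 10.4 ± 4.53 CPM in DRG (SD, n = 6 each). The 95% interval of its log2 fold change ran from -0.45 to 0.99. P2ry12 (chr3:59020193-59066753, minus strand), an ADP receptor, had 13.4 ± 2.97 CPM in TG against 11.1 ± 4.12 CPM in DRG, with an interval from -0.41 to 0.94. P2ry14 (chr3:58918548-58934546, minus strand), which answers to UDP-glucose, had 7.56 ± 2.76 CPM in TG against 8.54 ± 2.55 CPM in DRG, with an interval from -0.94 to 0.59. The closest genes were Fam19a3 (r = 0.85), Tlr7 (0.85) and Erich1 (0.84) for P2ry12, and Foxred2 (0.92), Irgm2 (0.89) and Lum (0.89) for P2ry14. Tlr7, a sensor of single-stranded RNA, averaged only 5.70 CPM, and Lum encodes a matrix proteoglycan. As for P2rx3, the genes were ranked among 11436, and these values only describe the pattern.

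**Figure D2:**
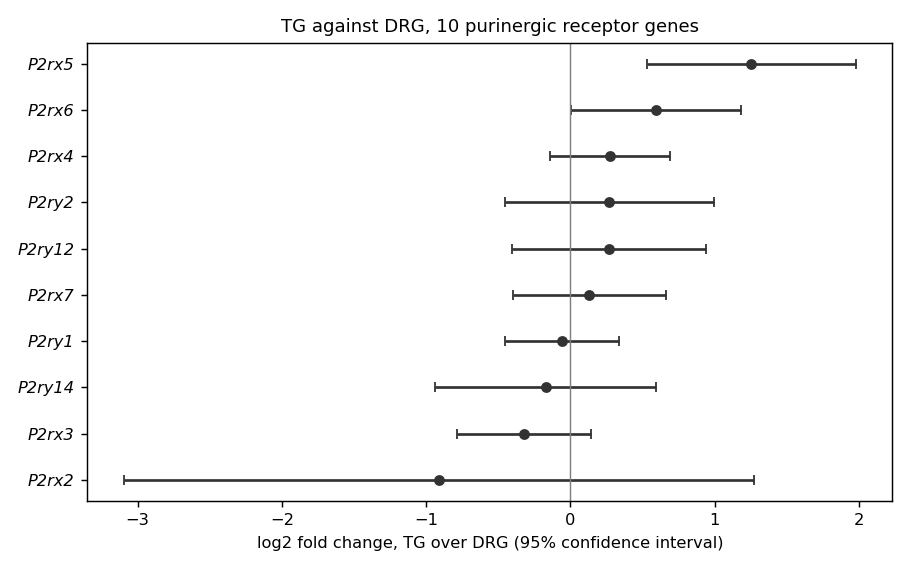
Log2 fold change of TG over DRG for the 10 receptor genes, as points with 95% confidence intervals from the edgeR fit of 12 libraries; the vertical line marks 0. The interval of P2rx5 runs from 0.53 to 1.98 and that of P2rx6 from 0.01 to 1.19, and the other 8 intervals include 0.

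The other genes of nucleotide signalling were read from a list of 32, of which 27 were tested. Panx2, a pannexin family member listed with the release channels, was the only one called. It was higher in TG, at 13.8 to 28.9 CPM against 6.07 to 11.2 CPM in DRG, with no overlap between the ganglia. Its log2 fold change was 1.20 (SE 0.28, edgeR adjusted p = 0.0437). The call was lost in 14 of 24 alternative fits, while the log2 fold change stayed between 0.88 and 1.54. An unadjusted p under 0.05 was reached by 6 of the 27 genes, against 8.83% of all genes. Panx2 was the only one of these higher in TG, and the rest, Acpp and Adk among them, were lower. The median log2 fold change of the list was 0.20.

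By role, the most abundant gene of each group was described. Among other P2 receptors this was P2ry6, a UDP receptor, at 2.35 ± 1.49 RPKM (SD, n = 12), so none of the 5 other P2 receptors listed reached the mean RPKM of P2ry2. Adora1, the inhibitory adenosine receptor, led its group at 9.80 ± 2.80 RPKM. Its log2 fold change of TG over DRG was 0.25 (SE 0.20, edgeR adjusted p = 0.865). Among release channels Gja1 (connexin 43, a gap junction protein of satellite glia) was highest at 38.7 ± 6.68 RPKM, and TG over DRG was -0.18 on the log2 scale (SE 0.17, edgeR adjusted p = 0.920).

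Acpp was the most abundant ectonucleotidase at 96.8 ± 46.2 RPKM. It ranged over 266 to 833 CPM in TG and 495 to 1346 CPM in DRG, and TG over DRG was -0.69 on the log2 scale (SE 0.29, edgeR adjusted p = 0.461). Adk, the kinase that turns adenosine back into AMP, was the most abundant gene of adenosine handling at 229 ± 114 RPKM. Its level was 132 to 442 CPM in TG and 251 to 741 CPM in DRG, and TG over DRG was -0.76 on the log2 scale (SE 0.24, edgeR adjusted p = 0.195). Neither gene passed the test, and their ranges overlapped. Entpd8 and Slc28a3 were listed at 0 in all libraries, and P2ry4, Slc17a9 and Panx3 were too low to be tested.

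**Figure D3:**
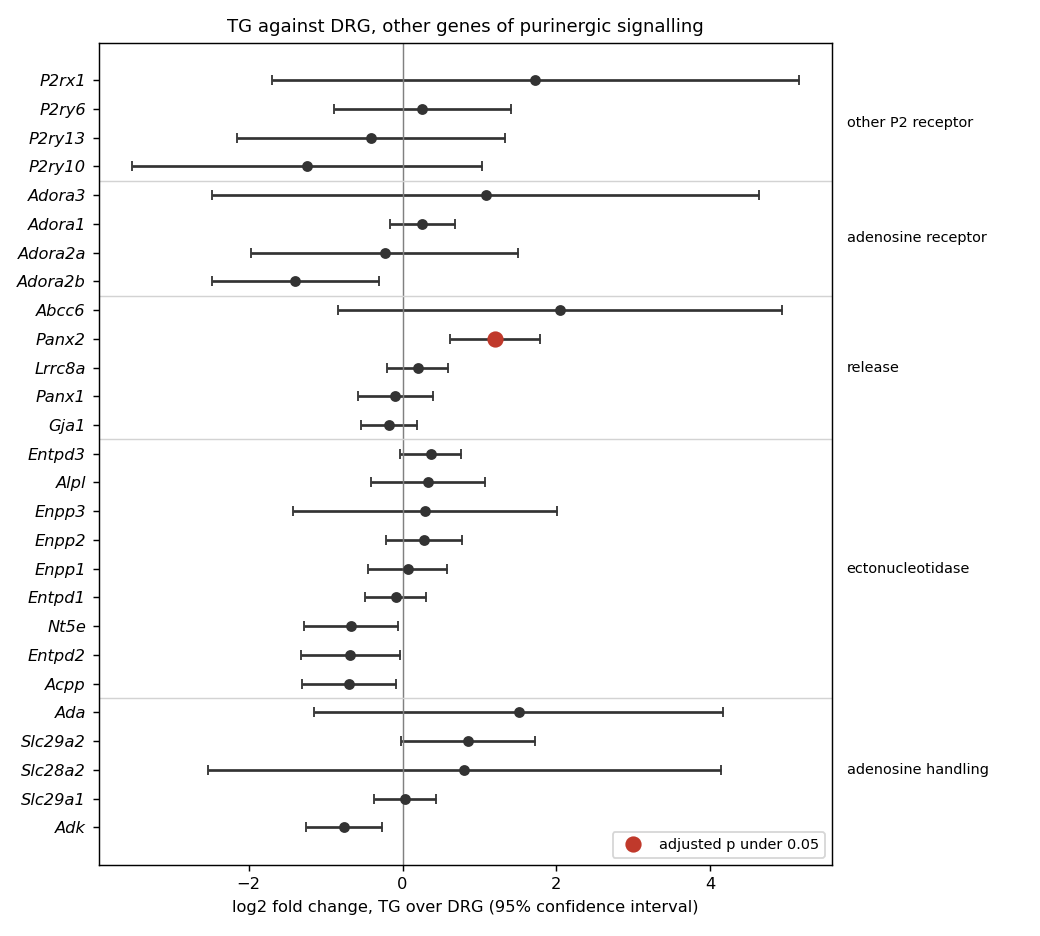
Log2 fold change of TG over DRG for 27 other genes of purinergic signalling grouped by role, as points with 95% confidence intervals from the edgeR fit of 12 libraries. The red point is Panx2 (1.20), the only gene with an adjusted p under 0.05, and the wide intervals belong to genes with few counts.

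The second comparison asked which receptors differed between the sexes in each ganglion, with 3 libraries against 3. By edgeR's adjusted p 0 of 10 members and 0% of all genes passed in either ganglion. At an unadjusted p under 0.05 there were 2 members in TG (P2rx6 and P2ry2) and 1 in DRG (P2rx6), where 20.7% and 11.8% of all genes reached it. DESeq2 called 0 members in either ganglion, where it called 7.56% of the genes with an adjusted p in TG (812 of 10744) and 5.65% in DRG (345 of 6109), but its own filter left 1 member in TG and 6 members in DRG, P2rx6 among them, without an adjusted p. By the criteria of the study (fold change above 2, unadjusted p under 0.05 and RPKM above 1), 1 of 10 members was called in each ganglion, P2ry2 in TG and P2rx6 in DRG. These criteria held for 7.26% of all genes in TG and 4.88% in DRG (2.89% higher in males), so 1 of 10 cannot be set apart from the background.

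P2rx6 was higher in males in DRG. It measured 7.26, 12.3 and 26.1 CPM in female DRG 1, 2 and 3 and 43.9, 51.2 and 34.7 CPM in male DRG 1, 2 and 3. Each male library exceeded each female library, a pattern without overlap that 17.4% of all genes showed in DRG. The log2 fold change of female over male was -1.50 (SE 0.44), or 2.82-fold higher in males with a 95% interval from 1.46 to 5.47, and the edgeR adjusted p was 0.307. Without female DRG 1 the log2 fold change was -1.17, and it was -2.13 without female DRG 3. In TG the values were 39.4, 24.6 and 25.6 CPM in female TG 1, 2 and 3 and 56.4, 62.2 and 33.0 CPM in male TG 1, 2 and 3. Male TG 3 lay within the female range, and the log2 fold change was -0.71 (SE 0.31, edgeR adjusted p = 0.230). In a fit with an offset for GC content and length it was -1.195 (edgeR unadjusted p = 0.00165, adjusted p = 0.359). The same offset gave -1.63 in DRG.

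Sensory neuron markers varied between the same libraries. Their summed CPM were 4303, 4246 and 7458 in female DRG 1, 2 and 3 and 7705, 8145 and 6247 in male DRG 1, 2 and 3. In TG they were 4355, 4287 and 6404 in females 1, 2 and 3 and 6551, 6759 and 4380 in males 1, 2 and 3. The order of these sums was that of P2rx6 within male DRG and male TG but not within either female group. In female DRG the first 2 libraries were in the other order, and in female TG female TG 1 had the highest P2rx6 level and female TG 3 the highest sum. The sexes overlapped in these sums in both ganglia. Markers of peptidergic nociceptors (4 genes) summed to 1766, 1917 and 2003 CPM in female DRG 1, 2 and 3 and to 3478, 4193 and 2538 CPM in male DRG 1, 2 and 3, without overlap and in the order of P2rx6 within each sex. In TG they were 1034, 1121 and 1810 CPM in females 1, 2 and 3 and 2774, 2364 and 1465 CPM in males 1, 2 and 3, with overlap. There the order of the sums was not that of P2rx6 within either sex. Lists of other cells also went with sex or with P2rx6 in DRG. Pericyte markers summed to 223 to 320 CPM in female and 144 to 207 CPM in male DRG, without overlap. Endothelial sums ran in the reverse order of P2rx6 within each sex in DRG. The part of any of these lists in the difference was not tested.

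P2rx6 exons share 554 bases with Slc7a4, which lies on the opposite strand, and the strand setting of the counting is not given in the sources used here. Slc7a4 measured 19.7, 34.4 and 21.3 CPM in female DRG 1, 2 and 3 and 17.6, 28.0 and 14.1 CPM in male DRG 1, 2 and 3. The sexes overlapped for Slc7a4 in both ganglia. Its log2 fold changes of female over male were 0.35 (SE 0.39) in DRG and 0.38 (SE 0.30) in TG. Whether the shared bases affect the P2rx6 counts was not tested. P2rx3 shares 51 bases of exon with Ssrp1, also on the opposite strand, and P2ry12 and P2ry14 lie inside Med12l without shared exon bases.

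P2ry2 in TG was the only other member to meet the study's criteria. It measured 20.1, 22.5 and 10.5 CPM in female TG 1, 2 and 3 and 5.56, 9.88 and 11.01 CPM in male TG 1, 2 and 3. Female TG 3 lay within the male range. The log2 fold change of female over male was 1.06 (SE 0.41), or 2.08-fold with a 95% interval from 1.12 to 3.87, and the edgeR adjusted p was 0.196. Without female TG 3 it was 1.27 with an edgeR adjusted p of 0.0228, in a fit where 3389 genes passed. With the offset for GC content and length it was 0.47. In DRG the sexes overlapped, with 9.31 ± 2.64 CPM in females against 11.5 ± 6.38 CPM in males (SD, n = 3 each) and a log2 fold change of -0.29 (SE 0.54).

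P2rx2 in TG was the other member whose sexes did not overlap, as 23.8% of all genes did not in TG. It had 6, 0 and 15 counts in female TG 1, 2 and 3 and 35, 31 and 24 counts in male TG 1, 2 and 3. With so few female counts, P2rx2 passed the filter on low counts in TG through the male libraries. Neither the lack of overlap nor the fold change is therefore support for a sex difference. The log2 fold change of -2.12 had an SE of 1.30, a 95% interval from -4.97 to 0.74 and an edgeR adjusted p of 0.367. It was -3.25 without female TG 3 (edgeR adjusted p = 0.0969) and -1.57 without female TG 2. In DRG the sexes overlapped, with 0, 28 and 46 counts in females 1, 2 and 3 and 27, 17 and 41 counts in males 1, 2 and 3.

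For the other members the sexes overlapped in both ganglia. P2rx3 had 394 ± 145 CPM in female and 439 ± 82.2 CPM in male TG, and 486 ± 221 CPM in female and 556 ± 81.3 CPM in male DRG (SD, n = 3 each). P2rx5 had 20.7 ± 10.3 and 18.0 ± 4.23 CPM in female and male TG, and 8.46 ± 3.27 and 7.76 ± 4.29 CPM in female and male DRG. P2rx7 had 49.9 ± 14.1 and 40.5 ± 13.9 CPM in female and male TG, and 48.3 ± 18.4 and 34.8 ± 9.78 CPM in female and male DRG. The unadjusted p-values of P2rx3, P2rx4, P2rx5, P2rx7, P2ry1, P2ry12 and P2ry14 were 0.178 or larger in both ganglia in the edgeR fit. With the offset for GC content and length, P2ry12 in TG moved from a log2 fold change of 0.23 to 0.92 (edgeR unadjusted p = 0.00988, adjusted p = 0.393), and P2rx4 in TG was -0.52 (edgeR unadjusted p = 0.0454, adjusted p = 0.460). With 3 libraries a side, intervals were wide, as for P2ry12 in DRG, whose log2 fold change of -0.01 had an interval from -1.17 to 1.15.

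**Figure D4:**
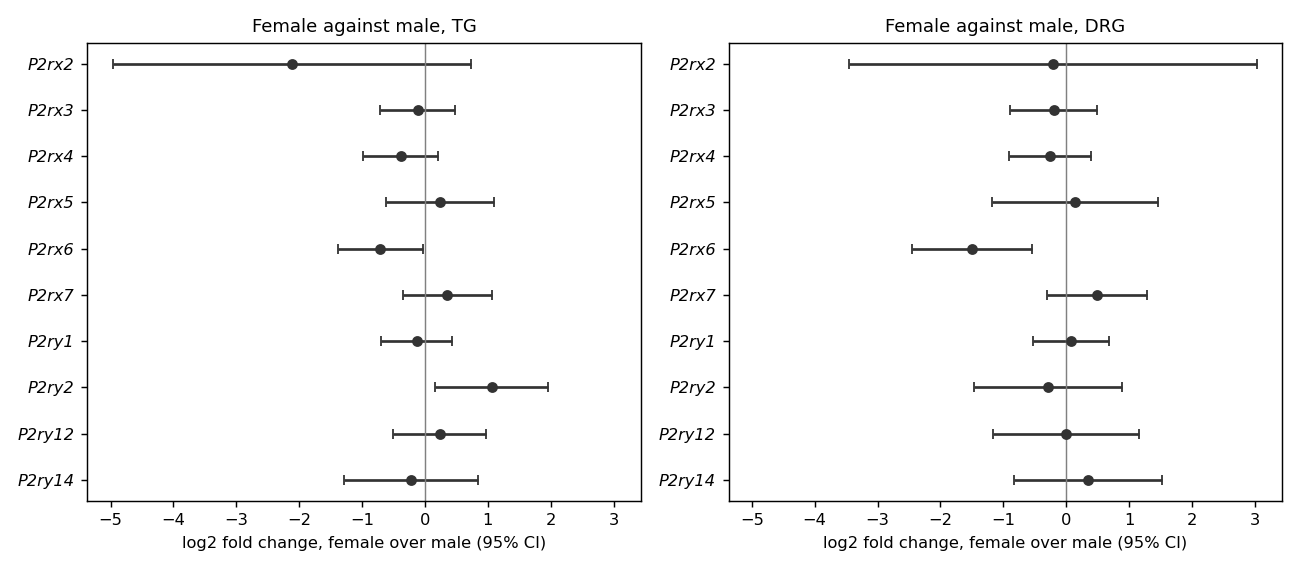
Log2 fold change of female over male for the 10 receptor genes in TG (left) and DRG (right), as points with 95% confidence intervals from the edgeR fits of 6 libraries each; values below 0 are higher in males. The intervals that exclude 0 are those of P2rx6 (-0.71) and P2ry2 (1.06) in TG and of P2rx6 (-1.50) in DRG, and none of the 3 has an adjusted p under 0.05.

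The third comparison asked whether the sex effect differed between the ganglia, as an interaction in the model of 12 libraries. The edgeR test called 0 of 10 members and 0% of all genes, and 0 of 10 members had an unadjusted p under 0.05, where 1.97% of all genes did. DESeq2 also called 0 of 10 members. P2ry2 had the smallest p among the members (unadjusted p = 0.0756, edgeR adjusted p = 0.9998), with a difference in log2 fold change of 1.30 and a 95% interval from -0.15 to 2.76. For P2rx6 the difference was 0.74 with an interval from -0.43 to 1.92. The sex effects of P2rx6 and P2ry2 in TG and in DRG are therefore not shown to differ.

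**Figure D5:**
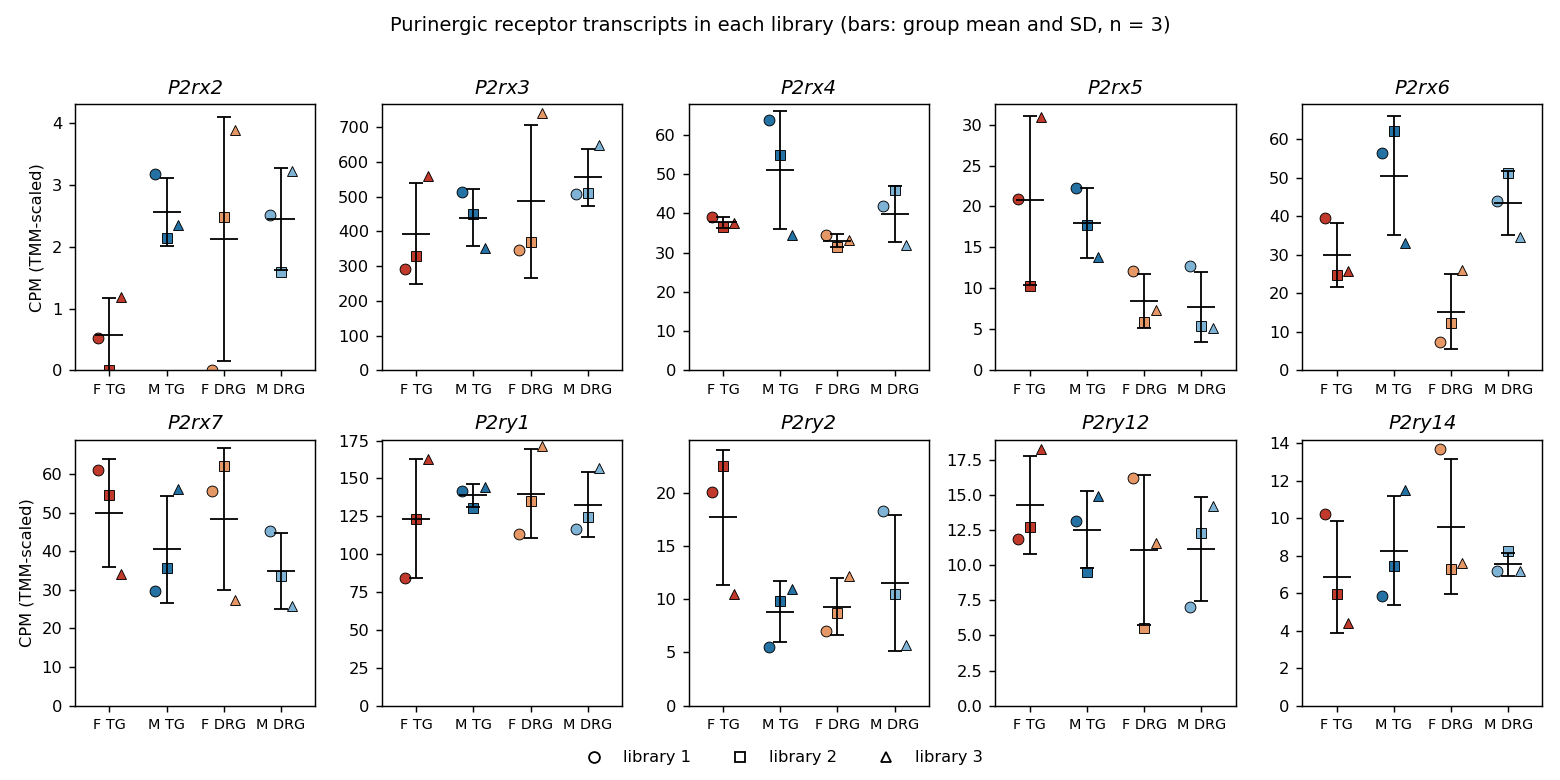
TMM-scaled CPM of each receptor gene in each library (F, female; M, male), with circles, squares and triangles for libraries 1, 2 and 3 and bars for the group mean and SD (n = 3). P2rx5 is at 10.3 to 31.0 CPM in TG against 5.12 to 12.7 CPM in DRG, and P2rx6 in female DRG (7.26 to 26.1 CPM) lies below male DRG (34.7 to 51.2 CPM).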

How the data were processed

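RNA of Percoll-enriched neuron fractions was sequenced in 12 libraries. The authors depleted ribosomal RNA, made dUTP-stranded libraries, aligned single reads to mm9 with TopHat2 and counted reads per gene with HTSeq. The deposited files hold these raw read counts for 22609 gene symbols, without normalization. Their 5 summary lines were left out. Reads outside genes were 37.6% to 50.4% of reads in and outside genes. Annotation, tool versions and strand setting are not given in the sources used here. Reads that map to several places were not counted, which lowers genes with near copies.

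Counts were tested with edgeR 4.0.16 in R 4.3.3 (filterByExpr, TMM, quasi-likelihood F-test, Benjamini-Hochberg over all genes tested, called at an adjusted p under 0.05). TG against DRG and the interaction used 12 libraries with 4 group means, and sex used the 6 libraries of a ganglion, leaving out sex-check genes from background counts. Errors are SDs of libraries or SEs of the fit. Exon lengths came from the GENCODE annotation of NCBIM37 (mm9), which matched 95.66% of genes. Intervals and floors (95% Wilson, 3 counts) cover counting error only. Fits were tested on simulated data. Alternatives were DESeq2 1.42.0, other scalings, filters and subsets of libraries, a replicate block and a GC and length offset.

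The genes, lists and comparisons were chosen with earlier results of these data known. All 10 receptors are named, with every listed pathway gene called or highest in RPKM within its role, and the 3 genes most like P2rx3, P2rx4, P2ry1, P2ry12 and P2ry14.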

Additional observations from a re-analysis of the deposited data

Results flagged for a closer look

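In DRG, P2ry14 of female DRG 1 was set far apart from the other 5 libraries, at 13.7 CPM against 7.17 to 8.26 CPM. It stood out by the gap to its nearest neighbour relative to the whole range (Dixon's criterion for 6 samples). Across the 10 receptors and both ganglia 20 groups of 6 libraries were examined, and chance picks about 1 in 20 groups. Female DRG 1 was also the library with the fewest reads in genes, and its P2ry14 value rests on 115 counts.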

How the results depend on the processing

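Female DRG 1 and female TG 3, the libraries that lay apart, are covered by an alternative without both. The members called in TG against DRG rose from 0 to 1 with DESeq2 (P2rx5), the replicate block (P2rx5) and the libraries numbered 1 and 2 (P2rx6), and stayed at 0 to 0 when any library was left out. Called pathway genes, 1 in the report, were 2 with DESeq2, 3 with the block, 5 in libraries 1 and 2, 3 without female DRG 1 and female TG 3, and 0 with DESeq2 size factors, in females only, in males only and with the GC and length offset (0 to 2 leaving out a library). Members called by sex in TG were 0 to 1 leaving out a library. Replicate numbers were not shown to pair libraries. Deviations of same-numbered libraries correlated above 0.1 in 4 of 6 TG and DRG pairs (0.028 to 0.22 over all 6). For sex they did so in 0 of 3 TG pairs and 2 of 3 DRG pairs. Libraries still shared traits by number, as the library numbered 3 had the lowest satellite glia sum in each group. Fits without the block leave such a structure in the spread between libraries. Under the block P2rx5 had a log2 fold change of 1.27 (edgeR adjusted p = 0.0128), and 562 genes in all were called for TG against DRG. Genes called in all, 143 in the report, were 333 with DESeq2, 218 unfiltered, 344 without female DRG 1 and female TG 3, 814 in libraries 1 and 2, 223 with the offset, 5 in females, 58 in males and 77 to 231 leaving out a library. By sex, DESeq2 called 812 genes in TG and 345 in DRG, no filter 4 and the model of 12 libraries 1 in TG, and leaving out a library gave 0 to 3389 in TG and 0 to 5 in DRG.

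Directions turned only for log2 fold changes that were not called. For TG over DRG these were P2rx2 at 0.049, P2ry1 at 0.058, P2ry2 at -0.37 and P2ry14 at 0.13 in males, P2rx7 at -0.15 in libraries 1 and 2, and P2ry14 at 0.12 without female DRG 1 and female TG 3. Leaving out a library gave -0.020 to 0.25 for P2rx7, -0.18 to 0.047 for P2ry1 and -0.37 to 0.0048 for P2ry14. For sex in TG, P2rx3 was 0.0041 without TMM, and P2ry1 was 0.18 and P2ry14 0.39 with the offset. Leaving out a library gave -0.50 to 0.022 for P2rx3, -0.21 to 0.53 for P2rx5, -0.42 to 0.045 for P2ry1, -0.025 to 0.38 for P2ry12 and -0.67 to 0.10 for P2ry14. For sex in DRG, P2ry12 was 0.17 without TMM and 0.58 with the offset. Leaving out a library gave -0.97 to 0.36 for P2rx2, -0.23 to 0.68 for P2rx5, -0.094 to 0.24 for P2ry1, -0.60 to 0.22 for P2ry2, -0.39 to 0.32 for P2ry12 and -0.019 to 0.51 for P2ry14. The interaction of P2rx5 was -0.090 under the block. The cause of these shifts was not tested. Without TMM the median over all genes rose on the log2 scale by 0.12 for sex in TG and by 0.17 in DRG. P2rx2 could not be tested at 10 counts in every library of a ganglion, and DESeq2 gave no adjusted p for 1 member by sex in TG and 6 in DRG.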
